A study of Mus musculus with 12 samples.

Results

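The proteasome genes of the mouse kidney were followed here through ischaemia-reperfusion injury (IRI, a clamped blood supply followed by its return) and through 2 antibody treatments given before it. They were taken as every gene of the count table whose mouse symbol begins with Psm, a letter from a to g and a number. The pattern found 48 of the 13124 genes in the table. Of these, 46 were proteasome genes by role: 11 non-ATPase and 6 ATPase subunits of the 19S particle, 7 alpha and 7 constitutive beta subunits of the 20S core, 3 immunoproteasome subunits, 5 regulators and 7 assembly factors. The other 2, Psmc3ip (a meiotic recombination cofactor) and Psme3ip1 (a protein that binds the regulator encoded by Psme3), share the symbol pattern alone. They are counted among the 48 and described apart. Psma8, Psmb11 and Psme2b also match the pattern and were not analysed here.

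The proteasome is the chamber in which cells break down proteins tagged with ubiquitin. Its 20S core is a stack of alpha and beta rings, and the beta subunits Psmb5, Psmb6 and Psmb7 carry the cutting sites inside it. The 19S particle caps the core, binds ubiquitin, removes it and unfolds the substrate with a ring of ATPases. In immune cells, and in other cells under interferon, Psmb8, Psmb9 and Psmb10 can take the places of Psmb5, Psmb6 and Psmb7 to form the immunoproteasome, which is known for making peptides for MHC class I. Subunit genes are known to be raised together when degradation falls behind, through the transcription factor encoded by Nfe2l1.

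RNA was sequenced from 12 whole kidneys of male C57BL/6 mice, 3 in each of 4 groups, all taken 24 h after surgery and perfused with saline. Kidneys 7 to 9 had IRI after VR81, a monoclonal antibody to the G-CSF receptor, which signals the release and survival of neutrophils. Kidneys 10 to 12 had IRI after BB5.1, a monoclonal antibody to complement C5. Kidneys 4 to 6 had IRI after an isotype control antibody, and kidneys 1 to 3 came from untreated sham-operated mice, so that the sham group differs from the isotype group by both the injury and an antibody. Antibodies were given 24 h before warm, unilateral IRI. The labels do not say which kidney of each mouse was taken, the age of the mice or whether any were pooled, and p-values measure the spread between these kidneys.

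Library totals ran from 13200930 to 16324215 counts. Levels below are in CPM, counts relative to the library total, rescaled by TMM, a method that sets the bulk of genes level between libraries. The tissue label held: 8 of 8 proximal tubule markers were in the table, and they summed to 9029 to 10872 CPM with anti-G-CSFR, 7140 to 10768 with anti-C5, 1671 to 2247 with isotype and 10136 to 11427 in sham. Genes of the injured tubule summed to 210 to 754, 245 to 2204, 8026 to 8083 and 194 to 266 CPM in the same groups, with the highest antibody values in kidneys 9 and 11. Neutrophil markers summed to 2.16 to 2.91 CPM with anti-G-CSFR, 8.25 to 122.5 with anti-C5 (the highest in kidney 11), 42.9 to 117 with isotype and 8.01 to 10.6 in sham. In whole tissue, fewer cells of a type and less RNA per cell cannot be told apart.

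Kidney 4 stood apart within the isotype group along transcript length. Its log2 level minus the mean of kidneys 5 and 6 had a median of 0.26 over the genes with the shortest transcripts (311 to 1761 bases) and -0.14 over those with the longest (4984 to 123179 bases), the genes being cut by length into 5 equal parts. Over the 48 genes the Spearman correlation of this difference with transcript length was -0.653, a description across genes that share these 3 libraries. At its ends stood Psmg1 at 0.91, Psmg4 at 0.86 and Psmb9 at 0.73 above kidneys 5 and 6, and Psmf1 at -0.52 and Psmd11 at -0.41. Kidney 12 deviated in the same way within the anti-C5 group, by 0.24 for the shortest genes and -0.19 for the longest. Trends along length were not confined to kidneys 4 and 12. Over all genes the Spearman correlation with length was -0.325 in kidney 4 and -0.414 in kidney 12. It was 0.330 in sham kidney 1, 0.311 in anti-G-CSFR kidney 9 and 0.275 in anti-C5 kidney 10. RNA quality per library is not given in the sources used here, and its part in this pattern was not tested. Results that depend on kidney 4 are given with and without it.

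**Figure D1:**
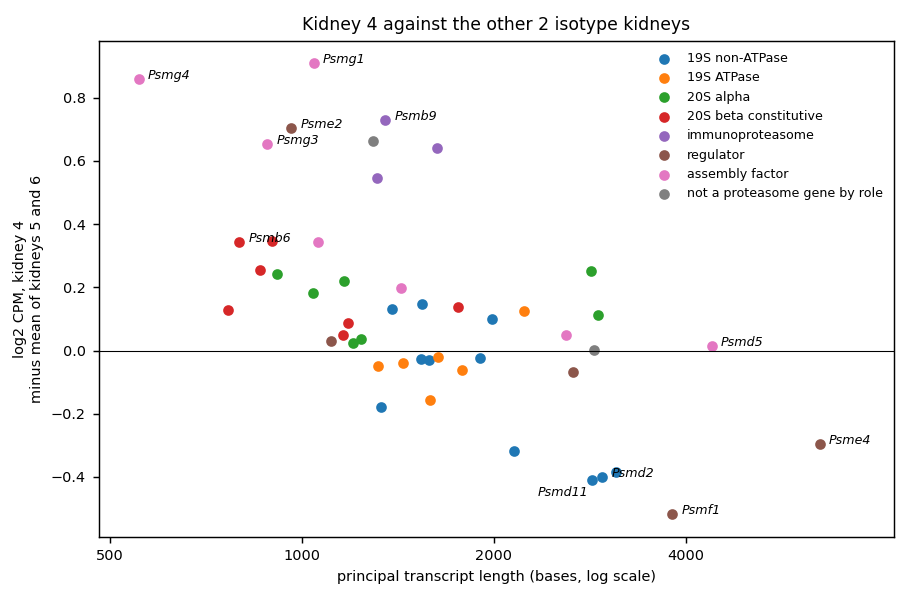
Each point is 1 of the 48 genes, coloured by class. The vertical axis is the log2 CPM of kidney 4 minus the mean of kidneys 5 and 6, all of the isotype group, and the horizontal axis is the length of the principal transcript in bases on a log scale. Short assembly factor genes such as Psmg1 and Psmg4 lie 0.86 to 0.91 above 0, and Psmd11 and Psmf1 lie below it.

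The DNA just before the start of 5 of these genes is shown because the results turn on them. Psmd11 had the smallest p of the 19S non-ATPase subunits and changed in all 3 comparisons with isotype kidneys, Psmb6 and Psmb9 form the catalytic pair whose ratio moved, and Psmb5 and Psmb8 form a pair whose ratio was not called. They were chosen with those values known. Each run is the 250 bases upstream of the start site used for the gene in GRCm38.p6, 5′ to 3′ on the strand of the gene: Psmd11 at chr11:80428365-80428614 (+), Psmb5 at chr14:54617996-54618245 (-), Psmb6 at chr11:70525107-70525356 (+), Psmb8 at chr17:34197945-34198194 (+) and Psmb9 at chr17:34187331-34187580 (-). Capitals mark a match to 1 of 4 motifs searched on both strands: TGACNNNGC (the core of the antioxidant response element, which Nfe2l1 and Nfe2l2 bind), GAAA followed by any 2 bases and a further GAAA (an interferon regulatory factor element), CCAAT (the CCAAT box) and TTCNNNGAA (the core of a STAT site). The runs for Psmb8 and Psmb9 lie inside the wider GENCODE spans of the same genes. The run for Psmb6 ends inside the RefSeq span of its gene, which begins at chr11:70525324, and its marked match lies after that position.
Psmd11: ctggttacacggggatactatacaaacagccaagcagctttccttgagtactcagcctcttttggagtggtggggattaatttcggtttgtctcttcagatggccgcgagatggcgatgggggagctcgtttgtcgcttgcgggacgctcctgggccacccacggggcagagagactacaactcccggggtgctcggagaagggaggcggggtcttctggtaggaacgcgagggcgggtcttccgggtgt
Psmb5: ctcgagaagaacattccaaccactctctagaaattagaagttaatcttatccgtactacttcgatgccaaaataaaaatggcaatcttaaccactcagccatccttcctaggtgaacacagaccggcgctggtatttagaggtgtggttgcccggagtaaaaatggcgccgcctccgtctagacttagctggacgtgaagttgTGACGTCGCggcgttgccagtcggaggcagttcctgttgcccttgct
Psmb6: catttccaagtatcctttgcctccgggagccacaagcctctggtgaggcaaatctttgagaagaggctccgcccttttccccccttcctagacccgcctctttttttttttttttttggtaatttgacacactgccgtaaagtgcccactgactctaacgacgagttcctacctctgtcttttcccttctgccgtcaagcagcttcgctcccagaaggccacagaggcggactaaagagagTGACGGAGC
Psmb8: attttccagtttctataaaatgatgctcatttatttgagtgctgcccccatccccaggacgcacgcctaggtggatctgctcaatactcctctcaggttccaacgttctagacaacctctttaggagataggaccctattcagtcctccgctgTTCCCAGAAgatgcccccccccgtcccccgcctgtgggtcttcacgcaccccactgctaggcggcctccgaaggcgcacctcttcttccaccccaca
Psmb9: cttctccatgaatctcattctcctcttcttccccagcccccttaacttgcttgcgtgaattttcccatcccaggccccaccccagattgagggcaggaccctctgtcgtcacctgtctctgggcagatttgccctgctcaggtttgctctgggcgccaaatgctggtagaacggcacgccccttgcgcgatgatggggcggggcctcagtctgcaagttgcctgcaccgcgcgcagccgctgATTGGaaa

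The runs for Psmb5 and Psmb6 each hold 1 antioxidant response core, that of Psmb8 holds 1 STAT core, that of Psmb9 holds 1 CCAAT box on the reverse strand, and that of Psmd11 holds none of the 4 motifs. A promoter was found for 41 of the 48 genes, searched over 300 bases that also take in the first 50 after the start. TGACNNNGC was in 6 of the 41 (14.6%), against 16.9% of 10428 promoters of genes in the table, and CCAAT in 15 (36.6%), against 42.4%. The interferon regulatory factor element was in 5 (12.2%), against 3.72%, and TTCNNNGAA in 3 (7.32%), against 8.32%. These are matches of letters in a window and say nothing of binding.

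Most of the 19S and constitutive 20S genes were higher in isotype than in sham kidneys. Relative to isotype, most 19S genes fell with either antibody. In isotype against sham kidneys, 31 of 48 genes were called higher at an adjusted p below 0.05 by edgeR (64.6%, against 32.1% of all 13124 genes), and 2 were called lower, Psmb9 and Psme4 (4.17%, against 30.7%). With anti-G-CSFR, 25 of 48 fell relative to isotype (52.1%, against 32.0% of all genes) and 2 rose, Psmb9 and Psmc3ip (4.17%, against 31.5%). With anti-C5, 18 of 48 fell relative to isotype (37.5%, against 29.8% of all genes) and 3 rose, Psmb9, Psmc3ip and Psmg1 (6.25%, against 30.5%). All 3 comparisons share the isotype kidneys, so their values are given side by side and are not independent. The tubule and neutrophil markers above moved in the same comparisons, and their part in these changes was not tested.

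In either direction the share of the 48 genes called was 56.2% for anti-G-CSFR against isotype, 43.8% for anti-C5 against isotype and 68.8% for isotype against sham, beside 63.5%, 60.3% and 62.8% of all genes. The share called was thus near or below that of all genes, and the difference lay in its split by direction. Of the 46 proteasome genes by role, 25, 20 and 33 were called in these comparisons. The median log2 change of the 48 was -0.31, -0.19 and 0.42 in these comparisons, beside -0.02, -0.01 and 0.03 over all genes. Few of these changes passed 1.5-fold. Called and above it were 2 of 48 higher (4.17%, against 23.3% of all genes) and 7 lower (14.6%, against 19.9%) with anti-G-CSFR, 2 higher (4.17%, against 22.5%) and 3 lower (6.25%, against 17.3%) with anti-C5, and 9 higher (18.8%, against 20.5%) and 1 lower (2.08%, against 22.7%) in isotype against sham. The groups did not overlap for 29 of 48 genes (60.4%, against 67.2% of all genes), 26 (54.2%, against 62.7%) and 38 (79.2%, against 69.2%). Of all 48, 29 differed somewhere among the 4 groups (edgeR adjusted p below 0.05), beside 61.0% of all genes.

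Scaling to library totals alone moved the median of all genes by -0.21, -0.18 and 0.20 on the log2 scale. It made 1 gene of the 48 higher and 34 lower with anti-G-CSFR, 2 higher and 29 lower with anti-C5, and 40 higher and 1 lower in isotype against sham. Of all called genes, it put 35.9%, 37.8% and 64.3% on the higher side, beside 49.6%, 50.6% and 51.0% under TMM. Relative to the median of all genes, the median of the 48 was -0.29, -0.17 and 0.39 under either scaling. Rescaling a library shifts all its genes nearly alike, so this agreement was fixed beforehand and is no test.

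**Figure D2:**
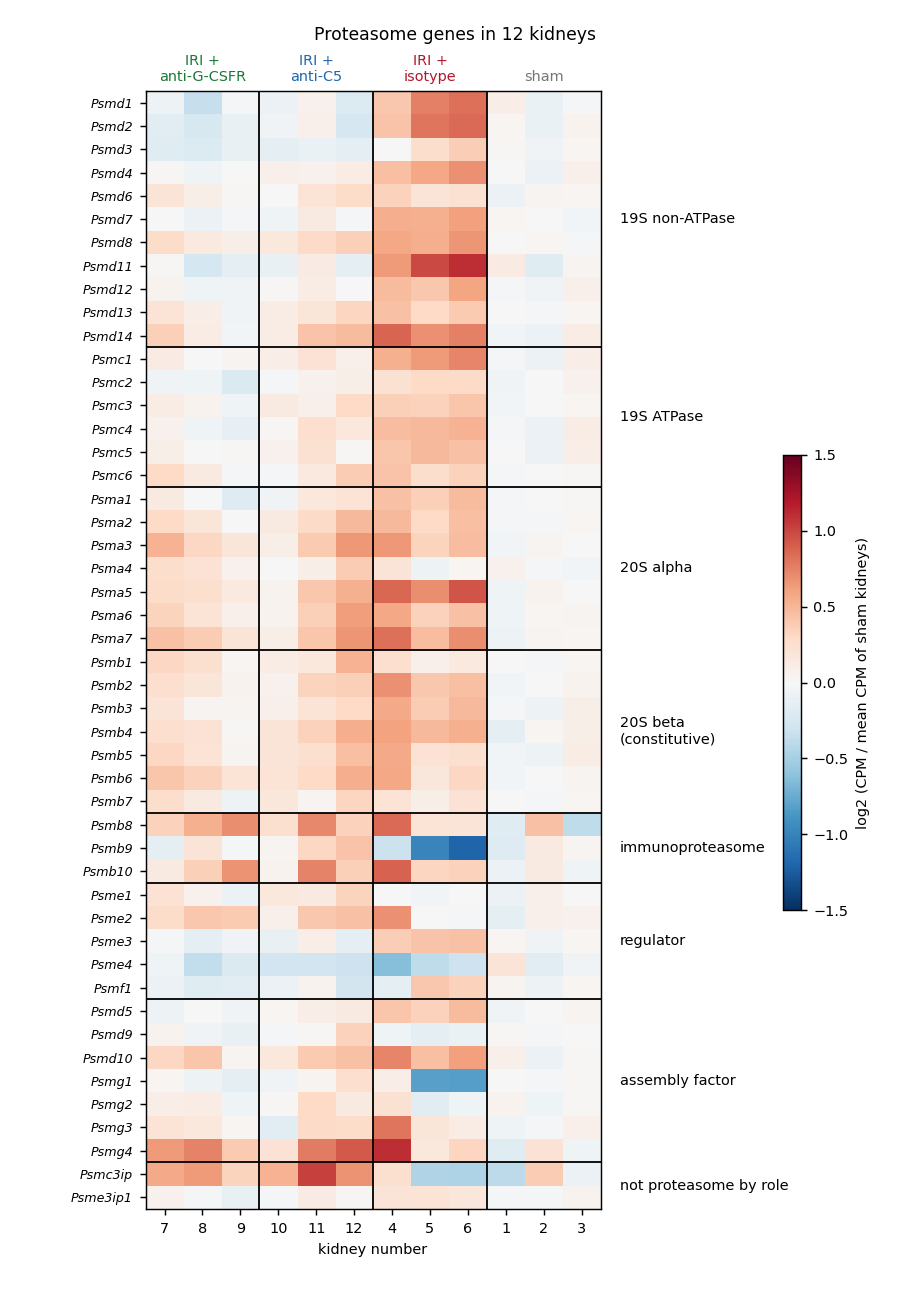
Rows are the 48 genes grouped by class, columns are the 12 kidneys, and colour is the log2 of CPM over the mean of the sham kidneys. Red fills most 19S and 20S rows in isotype kidneys 4 to 6, strongest in Psmd11, while Psmb9 and Psmg1 are blue in kidneys 5 and 6.

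The non-ATPase subunits of the 19S particle moved most. In isotype against sham kidneys 10 of 11 rose, with a median log2 change of 0.57. With anti-G-CSFR 10 of 11 fell relative to isotype, with a median of -0.59, and with anti-C5 9 of 11 fell, with a median of -0.44. Beside the counts of this and the later classes stand the shares of all genes called. These were 32.1% higher in isotype against sham, and 32.0% and 29.8% lower with anti-G-CSFR and anti-C5 against isotype. The mean log2 level of the class, counted from its sham mean, was -0.07 to 0.07 in anti-G-CSFR kidneys, 0.00 to 0.15 in anti-C5 kidneys, 0.47 to 0.65 in isotype kidneys and -0.05 to 0.03 in sham kidneys. All 3 isotype kidneys lay above the other 9. Over the 48 genes, the Spearman correlation of log2 change with transcript length was -0.31 with anti-G-CSFR and -0.33 with anti-C5 against isotype. It was 0.02 in isotype against sham. Over all genes with a length it was -0.17, -0.19 and 0.07. The part of length in the order of the classes was not tested.

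Psmd11, a structural subunit of the lid, had the smallest p of the class. It stood at 112, 92.3 and 101 CPM with anti-G-CSFR, at 103, 120.1 and 100.4 CPM with anti-C5, at 172, 219.7 and 238 CPM with isotype, and at 120.4, 97.5 and 114 CPM in sham kidneys. Every isotype kidney was above every other kidney. Its log2 change was -1.05 ± 0.14 (SE; edgeR adjusted p = 6.76e-05) with anti-G-CSFR and -0.96 ± 0.14 (edgeR adjusted p = 0.000144) with anti-C5, each against isotype. Isotype kidneys were 0.93 ± 0.14 above sham on the same scale, or 1.90-fold (edgeR adjusted p = 0.000135).

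Psmd2 and Psmd1, the large scaffold subunits of the base, followed the same order and are named after their values were seen. Psmd2 averaged 229 ± 10.5 CPM with anti-G-CSFR, 246 ± 28.2 with anti-C5, 420.3 ± 64.3 with isotype and 257 ± 14.5 in sham (SD, n = 3 each). Psmd1 averaged 167 ± 18.7, 175 ± 16.9, 293 ± 43.9 and 184 ± 13.0 CPM in the same groups. Psmd14, the deubiquitinase that strips ubiquitin from the substrate, averaged 105 ± 14.6, 120.4 ± 15.6, 161 ± 10.5 and 94.5 ± 6.98 CPM. All of these fell with either antibody relative to isotype and rose in isotype against sham. The other members called in all 3 comparisons were Psmd4 (a ubiquitin receptor), Psmd7, Psmd8 and Psmd12. Psmd13 was not called with anti-C5, and Psmd3 was not called in isotype against sham, where its log2 change was 0.21 (0.31, adjusted p = 0.00717 by edgeR, without kidney 4). The calls of Psmd3 and Psmd8 with anti-C5 were lost when only the 6 compared libraries were fitted. So were those of Psmc2, Psma1, Psmb3 and Psmg1, described below. That of Psmd3 was also lost without isotype kidney 6.

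Psmd6, another lid subunit, had the largest p of the class. It stood at 115, 107 and 101 CPM with anti-G-CSFR, 101, 115 and 121 with anti-C5, 127, 115 and 118 with isotype and 94.5, 103 and 103 in sham. The isotype kidneys overlapped both antibody groups and lay above sham. Its rise of 0.26 ± 0.09 in isotype against sham (edgeR adjusted p = 0.0300) was lost when any 1 of sham kidneys 1, 2 and 3 or isotype kidneys 4 and 6 was left out, with adjusted p from 0.0504 to 0.107. Without kidney 4 the rise was 0.21 (edgeR adjusted p = 0.0778).

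**Figure D3:**
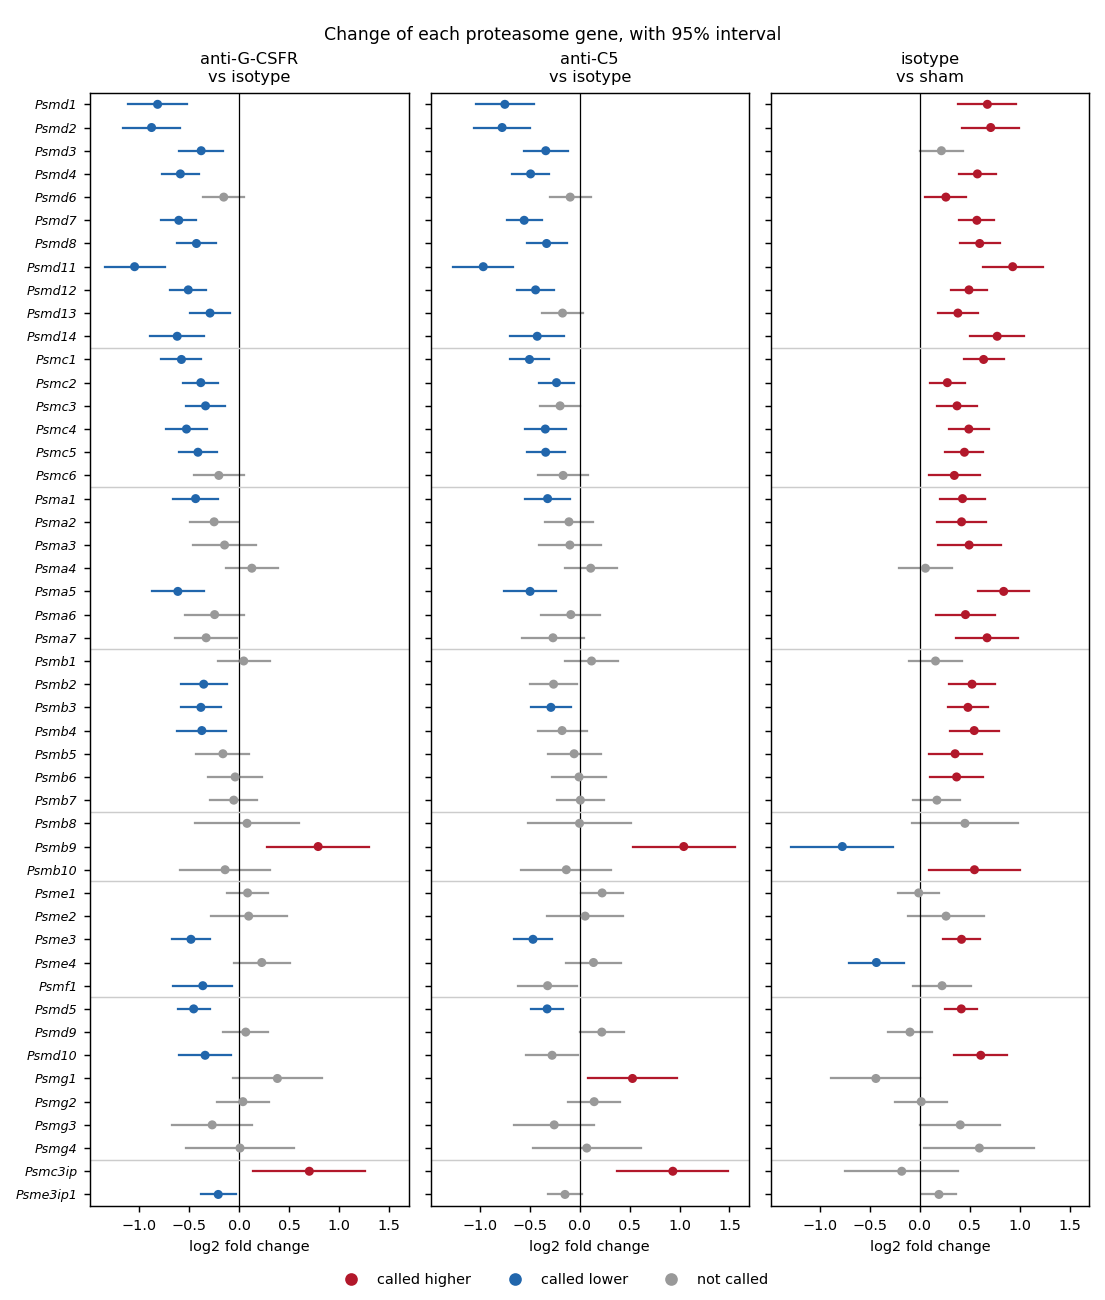
Points are the log2 fold change of each gene and bars its 95% interval, for anti-G-CSFR against isotype, anti-C5 against isotype and isotype against sham. Red points were called higher, blue points lower and grey points in neither direction. The 19S subunits at the top run from -0.09 to -1.05 in both antibody panels and from 0.21 to 0.93 in the third panel, and Psmb9 lies on the other side in each.

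The 6 ATPases, the ring that unfolds substrates, all rose in isotype against sham, with log2 changes from 0.27 to 0.64. Relative to isotype, 5 of 6 fell with anti-G-CSFR and 4 of 6 with anti-C5, with medians of -0.40 and -0.29. Psmc1 had the smallest p. It stood at 137, 126 and 129 CPM with anti-G-CSFR, 135, 147 and 133 with anti-C5, 182, 196 and 209 with isotype and 124, 118 and 135 in sham, and no isotype kidney overlapped another group. Its log2 changes were -0.58 ± 0.09 (SE; edgeR adjusted p = 0.000232) with anti-G-CSFR and -0.50 ± 0.09 (edgeR adjusted p = 0.000690) with anti-C5 against isotype, and 0.64 ± 0.09 (edgeR adjusted p = 0.000115) in isotype against sham. Psmc2, Psmc4 and Psmc5 were called in all 3 comparisons, and Psmc3 in all but anti-C5 against isotype. The call of Psmc2 with anti-C5 (-0.23) was lost without isotype kidney 5 or 6 or anti-C5 kidney 10, with edgeR adjusted p from 0.0726 to 0.0794.

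Psmc6 had the largest p of the ATPases. It stood at 172, 153 and 137 CPM with anti-G-CSFR, 138, 154 and 182 with anti-C5, 188, 167 and 177 with isotype and 138, 139.6 and 142 in sham. Both antibody groups overlapped the isotype group, and the log2 differences of -0.20 (95% interval -0.46 to 0.05) with anti-G-CSFR and -0.17 (-0.42 to 0.09) with anti-C5 were not called. Its rise of 0.34 in isotype against sham was lost without sham kidney 1 or 2 or isotype kidney 4, with edgeR adjusted p from 0.0547 to 0.0601. Without kidney 4 the rise was 0.30 (edgeR adjusted p = 0.0547).

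The alpha subunits form the gated outer rings of the 20S core. In isotype against sham kidneys 6 of 7 rose, with a median of 0.46, and relative to isotype 2 of 7, Psma1 and Psma5, fell with anti-G-CSFR and with anti-C5. These falls are near the shares of all genes called lower, 32.0% with anti-G-CSFR and 29.8% with anti-C5. Psma5 stood at 99.2, 96.2 and 90.5 CPM with anti-G-CSFR, at 84.4, 108 and 118 with anti-C5, at 148, 133 and 157 with isotype and at 78.3, 84.4 and 82.2 in sham. The isotype kidneys were above all others, and anti-C5 kidneys 11 and 12 were above every sham kidney. Its log2 changes were -0.61 ± 0.12 (SE; edgeR adjusted p = 0.000828), -0.50 ± 0.12 (edgeR adjusted p = 0.00351) and 0.84 ± 0.12 (edgeR adjusted p = 0.000101), for anti-G-CSFR and anti-C5 against isotype and isotype against sham. The fall of Psma1 with anti-C5, -0.32 on the log2 scale, was lost without isotype kidney 6 (edgeR adjusted p = 0.0591) or anti-C5 kidney 10 (edgeR adjusted p = 0.0733).

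Psma4 was called in no comparison. It stood at 237, 229 and 206 CPM with anti-G-CSFR, 196, 211 and 258 with anti-C5, 227, 188 and 201 with isotype and 207, 193 and 192 in sham, so that all groups overlapped. The difference between isotype and sham was 0.05 on the log2 scale, with a 95% interval from -0.21 to 0.32. The mean level of the alpha class, counted from sham, was 0.07 to 0.32 in anti-G-CSFR kidneys and 0.05 to 0.51 in anti-C5 kidneys, against 0.35 to 0.58 in isotype kidneys and -0.03 to 0.02 in sham kidneys. Of the antibody kidneys, kidney 12 alone reached the isotype range, and kidneys 10 and 11 stood at 0.05 and 0.30. Kidney 12 is the anti-C5 library in which short genes were raised, and the part of this in its value was not tested. For the 19S classes no antibody kidney reached the isotype range.

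Among the constitutive beta subunits 5 of 7 rose in isotype against sham (Psmb2, Psmb3, Psmb4, Psmb5 and Psmb6). Relative to isotype, 3 of 7 fell with anti-G-CSFR (Psmb2, Psmb3 and Psmb4) and 1 of 7 with anti-C5 (Psmb3), beside 32.0% and 29.8% of all genes. Psmb3, which carries no cutting site, stood at 115, 103 and 103 CPM with anti-G-CSFR, 105, 115 and 123 with anti-C5, 148, 130.2 and 140.5 with isotype and 98.9, 95.1 and 106 in sham. The isotype kidneys were above every other kidney. Its log2 changes were -0.38 ± 0.09 (SE; edgeR adjusted p = 0.00359), -0.29 ± 0.09 (edgeR adjusted p = 0.0188) and 0.48 ± 0.09 (edgeR adjusted p = 0.000867), for anti-G-CSFR and anti-C5 against isotype and isotype against sham. With anti-C5 it was lost without isotype kidney 6 (edgeR adjusted p = 0.0502) or anti-C5 kidney 10 (edgeR adjusted p = 0.0719). With anti-G-CSFR, Psmb2 and Psmb4 were lost without kidney 9 (edgeR adjusted p = 0.0645 for Psmb2 and 0.0695 for Psmb4), as was Psmd13 of the 19S particle (0.0995).

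None of the 3 subunits with cutting sites was called with either antibody relative to isotype. Psmb5, with the chymotrypsin-like site, stood at 138, 129 and 115 CPM with anti-G-CSFR, 127, 132 and 153 with anti-C5, 166, 129.7 and 131 with isotype and 108, 106 and 120.4 in sham. Psmb6, with the caspase-like site, stood at 176, 168 and 152 CPM with anti-G-CSFR, 152, 163 and 193 with anti-C5, 198, 149 and 163 with isotype and 128, 131 and 136 in sham. In both genes the isotype kidneys overlapped both antibody groups and lay above sham, with kidney 4 the highest of the 12. Isotype against sham was 0.35 ± 0.12 for Psmb5 (edgeR adjusted p = 0.0242) and 0.37 ± 0.12 for Psmb6 (edgeR adjusted p = 0.0214). Without kidney 4 the values were 0.23 (edgeR adjusted p = 0.0932) and 0.24 (edgeR adjusted p = 0.0811), and both calls were also lost without sham kidney 1 (0.0710 for Psmb5 and 0.0634 for Psmb6) or 2 (0.0813 and 0.0563). Copies of these genes exist as pseudogenes (1 of Psmb5, 2 of Psmb6, 2 of Psmb7 and 1 of Psma5), none of them in the table, and how reads shared with a copy were counted is not given.

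Psmb7, with the trypsin-like site, was called in no comparison. It stood at 195, 178 and 154 CPM with anti-G-CSFR, 182, 166 and 202 with anti-C5, 186, 172 and 189 with isotype and 161, 160.3 and 165 in sham. The isotype kidneys lay above sham by 0.17 on the log2 scale (95% interval -0.07 to 0.40). Psmb1, also called in no comparison, averaged 181 ± 18.1 CPM with anti-G-CSFR, 191 ± 30.4 with anti-C5, 176 ± 10.8 with isotype and 158 ± 3.59 in sham (SD, n = 3 each).

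The immunoproteasome subunits did not move as 1 group. Psmb9 fell in isotype against sham, where most of the constitutive subunits rose, and it rose with either antibody relative to isotype. It stood at 3.96, 5.00 and 4.31 CPM with anti-G-CSFR, at 4.51, 5.42 and 5.88 with anti-C5, at 3.50, 2.21 and 1.91 with isotype and at 3.82, 4.80 and 4.52 in sham. The isotype kidneys were below every other kidney, and kidney 4 was the nearest to them. These levels rest on 30 to 76 counts per kidney. Its log2 change was 0.79 ± 0.23 (SE; edgeR adjusted p = 0.0113) with anti-G-CSFR and 1.04 ± 0.23 (edgeR adjusted p = 0.00243) with anti-C5, each against isotype, and -0.78 ± 0.23 (edgeR adjusted p = 0.0121) in isotype against sham. Without kidney 4 these were 1.10, 1.35 and -1.08. Without isotype kidney 6, isotype against sham was -0.61 and no longer called (edgeR adjusted p = 0.0530).

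Psmb8 was called in no comparison, and Psmb10 rose in isotype against sham. Psmb8 stood at 10.4, 11.8 and 13.2 CPM with anti-G-CSFR, 9.59, 13.5 and 10.4 with anti-C5, 14.7, 9.40 and 9.30 with isotype and 7.17, 11.0 and 6.23 in sham, with overlap between all groups. Psmb10 stood at 12.3, 14.3 and 17.9 CPM with anti-G-CSFR, 11.6, 18.8 and 14.3 with anti-C5, 20.7, 14.0 and 14.3 with isotype and 10.5, 12.3 and 10.8 in sham. The isotype kidneys lay above the sham kidneys, by 0.55 ± 0.21 on the log2 scale (edgeR adjusted p = 0.0376). That call was lost without kidney 4 (0.34, edgeR adjusted p = 0.162) or without any 1 sham kidney (edgeR adjusted p from 0.0509 to 0.102). Psmb8 was called in isotype against sham without sham kidney 2 (0.73, edgeR adjusted p = 0.0226) and with library totals alone (0.65, 0.0418).

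Psmb9 and Tap1, which loads peptides into the same pathway, lie head to head on opposite strands, and the GENCODE span of Psmb9 (17:34181987-34187764, GRCm38) runs past the RefSeq start of Tap1. The strand setting of the counting is not given, so reads from the shared stretch cannot be told apart. Tap1 was not called in any comparison, with log2 differences of -0.22 and -0.27 for anti-G-CSFR and anti-C5 against isotype and 0.30 in isotype against sham. MHC class II markers, of dendritic cells and macrophages, were lower in the same kidneys as Psmb9: 5 of 5 were called lower in isotype against sham, beside 30.7% of all genes. The 5 summed to 271 to 434 CPM with anti-G-CSFR, 259 to 414 with anti-C5, 107 to 207 with isotype and 284 to 434 in sham. The list of monocyte and macrophage markers did not follow them. It summed to 120 to 142, 152 to 208, 191 to 232 and 103 to 148 CPM in those groups. In isotype against sham, 2 of its 8 genes were called higher and 1 lower, beside 32.1% and 30.7% of all genes. General leukocyte markers summed to 115 to 137, 129 to 216, 126 to 190 and 125 to 143 CPM in those groups, and no marker of T, B or NK cells out of 9 was in the table. Tubule markers were also lower in isotype kidneys. Against sham, 8 of 8 proximal tubule and 3 of 4 loop and distal tubule markers were called lower. The part of any of these cells in the level of Psmb9 was not tested.

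**Figure D4:**
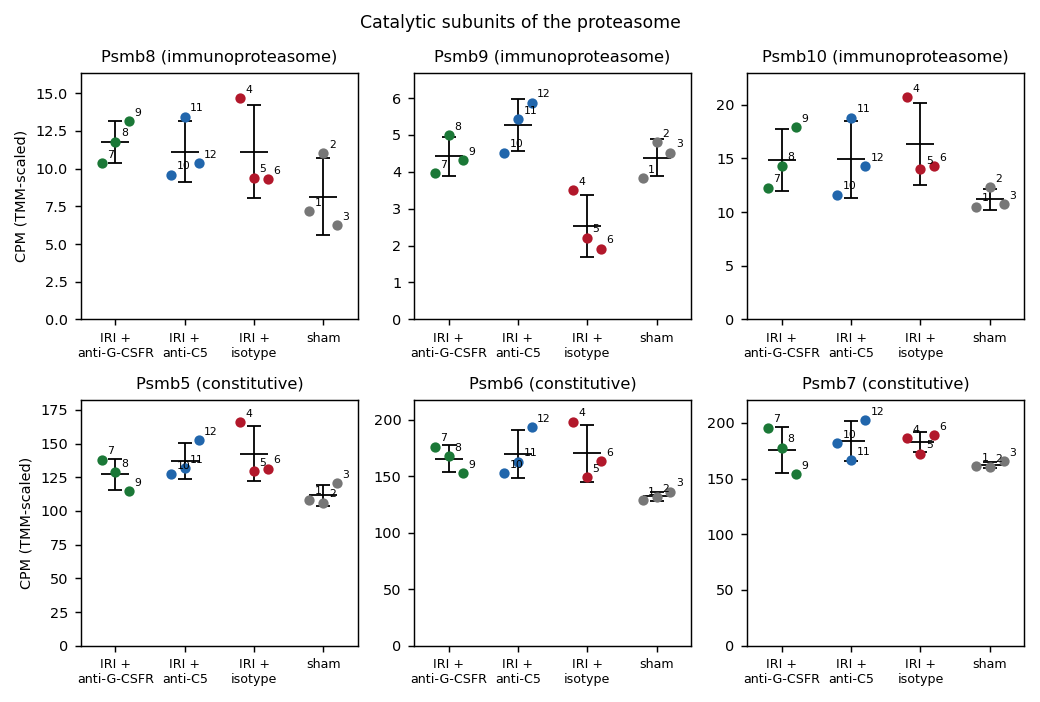
Points are single kidneys with their numbers, dashes the group mean and bars the SD, in CPM on axes that start at 0, for each immunoproteasome subunit above the constitutive subunit it replaces. The isotype kidneys lie lowest in Psmb9, at 1.91 to 3.50 CPM, and kidney 4 lies highest of the 12 in Psmb8, Psmb10, Psmb5 and Psmb6.

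The ratio of each immunoproteasome subunit to its counterpart was compared within kidneys, which removes library scaling. The log2 ratio of Psmb9 to Psmb6 averaged -5.23 ± 0.21 with anti-G-CSFR, -5.01 ± 0.09 with anti-C5, -6.10 ± 0.30 with isotype and -4.92 ± 0.15 in sham (SD, n = 3 each). It differed among the groups (F = 21.4, exact permutation test over 369600 assignments, p = 0.00162, and 0.00487 after adjustment over the 3 ratios). The ratios of Psmb8 to Psmb5 and of Psmb10 to Psmb7 were not called (exact permutation test, adjusted p = 0.648 for each). Psmb8 to Psmb5 averaged -3.44 ± 0.30, -3.63 ± 0.31, -3.70 ± 0.18 and -3.82 ± 0.51 in the same order of groups, and Psmb10 to Psmb7 averaged -3.58 ± 0.45, -3.64 ± 0.44, -3.50 ± 0.30 and -3.86 ± 0.14.

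Levels of different genes were set side by side per kilobase of exon, since a longer gene collects more reads. In sham kidneys the constitutive core led, with Psmb5 at 124, Psma6 at 108, Psma4 at 83.3 and Psmb4 at 83.1 CPM per kb of the union of exons. Psmb10 stood at 6.57, Psmb8 at 2.41 and Psmb9 at 1.20 CPM per kb, which are among the lowest of the 48. Per kb, Psmb9 was 1.37% of Psmb6 with anti-G-CSFR, 1.59% with anti-C5, 0.764% with isotype and 1.70% in sham. Psmb8 was 2.46%, 2.16%, 2.08% and 1.94% of Psmb5, and Psmb10 was 17.0%, 16.3%, 18.0% and 13.9% of Psmb7, in those groups. The length used sets these sizes: per kb of the principal transcript, a choice added after the data were seen, Psma4, Psmb6 and Psmb7 led in sham kidneys, while Psma6 ranked 7 and Psmb5 ranked 8. On that length Psmb10 was 7.48%, 7.20%, 7.93% and 6.11% of Psmb7, Psmb8 was 5.11%, 4.48%, 4.31% and 4.03% of Psmb5, and Psmb9 was 1.58%, 1.84%, 0.882% and 1.96% of Psmb6.

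Of the regulators, which open or block the core in place of the 19S cap, Psme3 alone was called in all 3 comparisons. Psme3, the PA28 gamma subunit of the nucleus, stood at 122, 113 and 119 CPM with anti-G-CSFR, 114, 132 and 112 with anti-C5, 160.0, 167 and 168 with isotype and 126, 119.6 and 126 in sham. No isotype kidney overlapped another group. Its log2 changes were -0.48 ± 0.09 (SE; edgeR adjusted p = 0.000547) and -0.47 ± 0.09 (edgeR adjusted p = 0.000796) with anti-G-CSFR and anti-C5 against isotype, and 0.42 ± 0.09 (edgeR adjusted p = 0.00141) in isotype against sham.

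Psme4, the PA200 activator, went the other way and fell in isotype against sham. It stood at 316, 257 and 284 CPM with anti-G-CSFR, 271, 270.5 and 266 with anti-C5, 212, 254 and 267 with isotype and 379, 294 and 319 in sham. The isotype kidneys lay below every sham kidney and overlapped both antibody groups. The log2 change of -0.44 ± 0.13 (edgeR adjusted p = 0.0106) was lost without sham kidney 1 (-0.33, edgeR adjusted p = 0.0550) and with library totals alone (-0.24, edgeR adjusted p = 0.135). Psmf1, an inhibitor of the core, averaged 35.9 ± 1.26 CPM with anti-G-CSFR, 37.0 ± 4.15 with anti-C5, 46.2 ± 9.04 with isotype and 39.7 ± 1.71 in sham (SD, n = 3 each). It fell with anti-G-CSFR by 0.36 on the log2 scale (edgeR adjusted p = 0.0326). This was lost without any 1 of kidneys 5 to 9 (edgeR adjusted p from 0.0554 to 0.141). With anti-C5 it was not called, at -0.32 (edgeR adjusted p = 0.0573), but was called without kidney 4, at -0.47 (edgeR adjusted p = 0.00173). Without kidney 4, Psmf1 was also 0.37 higher in isotype than in sham kidneys (edgeR adjusted p = 0.00649).

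Psme1 and Psme2, the PA28 alpha and beta subunits that interferon is known to raise, were called in no comparison. Psme2 has a near copy in the genome, Psme2b, and reads shared with it are uncertain. It had the largest p of the class and stood at 64.8, 70.4 and 69.8 CPM with anti-G-CSFR, 56.1, 70.9 and 72.4 with anti-C5, 86.2, 53.3 and 52.4 with isotype and 48.3, 56.3 and 55.6 in sham. Kidney 4 was the highest of the 12, and kidneys 5 and 6 were within the sham range. Without kidney 4, Psme2 was 0.37 higher with anti-G-CSFR (edgeR adjusted p = 0.0156) and 0.33 higher with anti-C5 (edgeR adjusted p = 0.0277) than isotype, and the difference between isotype and sham was -0.02. Psme1 averaged 60.3 ± 6.32 CPM with anti-G-CSFR, 66.5 ± 4.93 with anti-C5, 56.9 ± 0.883 with isotype and 57.4 ± 3.46 in sham (SD, n = 3 each).

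The assembly factors, chaperones that build the rings and leave the finished particle, were mixed. In isotype against sham 2 of 7 rose, Psmd5 and Psmd10, both chaperones of the 19S base, which is near the 32.1% of all genes called higher. Both fell with anti-G-CSFR relative to isotype, and Psmd5 alone fell with anti-C5, beside 32.0% and 29.8% of all genes called lower. Psmd5 stood at 68.0, 71.2 and 69.1 CPM with anti-G-CSFR, 73.0, 76.5 and 78.5 with anti-C5, 95.7, 90.8 and 99.0 with isotype and 69.2, 71.6 and 73.6 in sham, with all isotype kidneys above the rest. Its log2 changes were -0.46 ± 0.07 (SE; edgeR adjusted p = 0.000250), -0.32 ± 0.07 (edgeR adjusted p = 0.00250) and 0.41 ± 0.07 (edgeR adjusted p = 0.000459), for anti-G-CSFR and anti-C5 against isotype and isotype against sham. The fall of Psmd10 with anti-G-CSFR, -0.34, was lost without isotype kidney 4 (-0.27) or 6, or anti-G-CSFR kidney 9 (-0.21), with edgeR adjusted p from 0.0624 to 0.147. Psmd9, the third base chaperone, was called in no comparison and averaged 28.2 ± 1.67, 31.5 ± 4.51, 27.0 ± 0.572 and 28.9 ± 0.485 CPM in anti-G-CSFR, anti-C5, isotype and sham kidneys (SD, n = 3 each).

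Psmg1, a chaperone of the alpha ring, shows how far kidney 4 can decide a call. It stood at 28.5, 26.6 and 25.2 CPM with anti-G-CSFR, 26.9, 28.8 and 33.2 with anti-C5, 29.8, 15.9 and 15.7 with isotype and 27.7, 27.6 and 28.3 in sham. Isotype kidneys 5 and 6 were below all others and kidney 4 was not. It rose with anti-C5 relative to isotype by 0.53 ± 0.20 (edgeR adjusted p = 0.0411), and leaving out any 1 of the 12 kidneys other than 4 and 9 ended this call, with adjusted p from 0.0511 to 0.156, as did library totals alone (0.35, edgeR adjusted p = 0.145). Without kidney 4 it was 0.76 higher with anti-G-CSFR (edgeR adjusted p = 0.000126) and 0.91 higher with anti-C5 (edgeR adjusted p = 5.05e-05) than isotype, and -0.82 in isotype against sham (edgeR adjusted p = 7.83e-05).

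Psmg2, the partner of Psmg1, had the largest p of the assembly factors and was called in no comparison. It stood at 22.7, 22.7 and 20.1 CPM with anti-G-CSFR, 21.4, 26.0 and 23.2 with anti-C5, 24.8, 18.8 and 20.3 with isotype and 21.8, 20.1 and 21.4 in sham, all overlapping. Without kidney 4 it was 0.27 higher with anti-C5 than isotype (edgeR adjusted p = 0.0476). Psmg3 and Psmg4, another chaperone pair of the alpha ring, were called in no comparison either. Psmg3 averaged 12.3 ± 0.747, 12.5 ± 2.07, 14.8 ± 4.18 and 11.2 ± 0.546 CPM, and Psmg4 averaged 12.2 ± 1.48, 12.8 ± 3.02, 12.1 ± 4.55 and 8.04 ± 1.16 CPM, in anti-G-CSFR, anti-C5, isotype and sham kidneys. In isotype against sham, Psmg3 was called without kidney 6 (0.53), and Psmg4 without kidney 5 (0.77), 6 (0.71) or 10 (0.59).

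**Figure D5:**
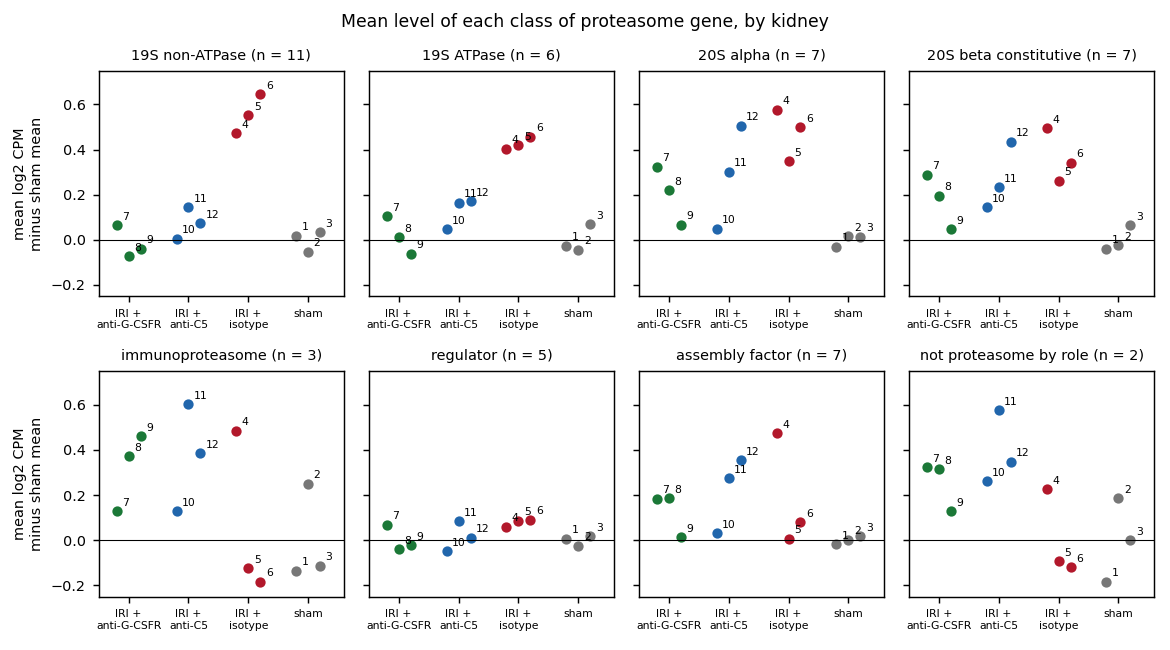
Each panel is 1 class of gene and each point 1 kidney, with the mean log2 CPM of the class minus its mean over sham kidneys on the vertical axis and the 4 groups on the horizontal axis. Isotype kidneys lie at 0.47 to 0.65 for the 19S non-ATPase class, apart from all others, while kidney 12 (anti-C5) reaches the isotype range in the 20S alpha and beta classes and kidney 7 (anti-G-CSFR) reaches it in the beta class.

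The 2 genes outside the proteasome moved on their own. Psmc3ip stood at 4.95, 5.22 and 4.24 CPM with anti-G-CSFR, 4.80, 6.80 and 5.33 with anti-C5, 3.94, 2.46 and 2.42 with isotype and 2.55, 4.35 and 3.15 in sham. The isotype kidneys were below both antibody groups and overlapped sham. It rose with anti-G-CSFR by 0.70 ± 0.26 (edgeR adjusted p = 0.0307) and with anti-C5 by 0.93 ± 0.25 (edgeR adjusted p = 0.00784). The first call was lost without kidney 5, 6, 7 or 8 (edgeR adjusted p from 0.0733 to 0.107) and with library totals alone (0.119). Psme3ip1 fell with anti-G-CSFR relative to isotype by 0.21 on the log2 scale (edgeR adjusted p = 0.0373), with 34.4, 32.3 and 30.6 CPM against 37.6, 37.9 and 37.1 CPM. It stood at 32.6, 35.9 and 33.2 CPM with anti-C5 and 32.3, 32.3 and 34.0 CPM in sham. This call was lost without any 1 of kidneys 1, 2, 4, 5, 6, 8 and 9 (edgeR adjusted p from 0.0504 to 0.184). Without kidney 4 the change with anti-G-CSFR was -0.21 (edgeR adjusted p = 0.0531).

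The remaining 3 comparisons set each antibody group against sham and the antibodies against each other. None of the 48 was called by edgeR in anti-G-CSFR against sham, anti-C5 against sham or anti-G-CSFR against anti-C5, where 0.00% of all genes were called. At an unadjusted p below 0.05 there were 5, 18 and 0 of the 48, beside 778, 1487 and 207 of all genes. DESeq2 called 9, 28 and 2 genes, limma-voom 0 in each, and an edgeR fit of only the 6 compared libraries 43, 0 and 0. None of these called any of the 48. The groups did not overlap for 12 of the 48 with anti-G-CSFR against sham (25%, against 18.4% of all genes), 20 with anti-C5 against sham (41.7%, against 18.0%) and 3 between the antibodies (6.25%, against 4.28%). Of the 20, 18 were higher with anti-C5, and of the 12, 8 were higher with anti-G-CSFR. The median log2 difference of the 48 from sham was 0.09 with anti-G-CSFR and 0.18 with anti-C5.

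The lowest adjusted p of the 48 against sham were 0.807 with anti-G-CSFR and 0.371 with anti-C5 (edgeR). Psma7 was 0.34 above sham with anti-G-CSFR (95% interval 0.03 to 0.65) and 0.40 above it with anti-C5 (0.09 to 0.72), unadjusted for the number of genes, with the groups not overlapping in either. Psmd14 differed by 0.15 (-0.12 to 0.42) and 0.35 (0.08 to 0.62). For Psmd11 the intervals were -0.42 to 0.18 with anti-G-CSFR and -0.33 to 0.26 with anti-C5, and for Psmb9 -0.48 to 0.51 and -0.23 to 0.76. Between the antibodies, Psmd11 differed by -0.08 (-0.38 to 0.21) and Psmb9 by -0.25 (-0.75 to 0.24), anti-G-CSFR minus anti-C5. A missed threshold does not show equal levels, and these intervals give the differences that 3 kidneys a group leave possible.

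Lists of other genes of the pathway were counted the same way, beside the shares of all genes given above. Of 9 proteasome parts and assembly genes without a Psm symbol, 6 rose and 1 fell in isotype against sham. With anti-G-CSFR and with anti-C5, 1 rose and 5 fell relative to isotype. The median log2 change of the 9 was -0.30, -0.29 and 0.39 for anti-G-CSFR against isotype, anti-C5 against isotype and isotype against sham. Adrm1, a ubiquitin receptor of the 19S base, changed by -0.83 and -0.55 with anti-G-CSFR and anti-C5 against isotype and by 0.64 in isotype against sham. Fbxo7, a ubiquitin ligase subunit that binds the proteasome inhibitor, went the other way, by 0.96, 0.98 and -1.02. Paaf1 was not analysed here.

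Of 6 deubiquitinases, ligases and partners that bind the proteasome, 4 rose and 1 fell in isotype against sham, and 3 fell with each antibody relative to isotype, with medians of -0.45, -0.48 and 0.50 in the order anti-G-CSFR against isotype, anti-C5 against isotype and isotype against sham, kept below. Zfand2a, a heat-shock and arsenite-inducible partner, changed by -1.46, -1.36 and 1.58, and Usp14, a deubiquitinase of the 19S particle, by -0.87, -0.79 and 0.68. Of 11 ubiquitin shuttles and unfoldase genes, 1 rose and 8 fell with each antibody, and 4 rose and 2 fell in isotype against sham, with medians of -0.55, -0.57 and 0.30. Sqstm1, the autophagy receptor p62, changed by -1.46, -1.18 and 1.21, and Ufd1, a cofactor of the unfoldase encoded by Vcp, by -0.72, -0.64 and 0.61. Of 10 genes for ubiquitin and its activation, 5 rose in isotype against sham, 1 rose and 4 fell with anti-G-CSFR and 3 fell with anti-C5, with medians of -0.22, -0.17 and 0.29. The activating enzymes Uba1 and Uba6 changed by -0.62 and -0.59 with anti-G-CSFR, -0.54 and -0.59 with anti-C5 and 0.42 and 0.34 in isotype against sham.

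Of 9 genes that control transcription of proteasome genes, 3 rose and 4 fell with each antibody relative to isotype, and 4 rose and 3 fell in isotype against sham, with medians of -0.01, -0.10 and -0.09. The small Maf proteins Maff and Mafk, partners of Nfe2l1 and Nfe2l2, changed by -2.71 and -1.05 with anti-G-CSFR, -2.54 and -0.99 with anti-C5 and 3.44 and 1.04 in isotype against sham. Nfe2l1 itself, named after its values were seen, was not called, at -0.01, -0.10 and -0.09. Nfe2l2, also named afterwards, averaged 164 ± 10.0 CPM with isotype and 128 ± 6.13 in sham (SD, n = 3 each). It averaged 111 ± 5.02 CPM with anti-G-CSFR and 112 ± 12.6 with anti-C5. Ddi2 was lowest with isotype, at 15.1 CPM, beside 25.4 in sham, 22.2 with anti-G-CSFR and 21.7 with anti-C5. Of 14 interferon-regulated antigen processing genes, 1 rose and 1 fell in each of the 3 comparisons, with medians of -0.09, -0.07 and 0.17. The class I gene H2-D1 changed by -0.31, -0.32 and 0.34. Each pathway gene said here to have changed was called in all 3 comparisons, with edgeR adjusted p of at most 0.0344, the value of Uba6 in isotype against sham.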

How the data were processed

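The deposited table holds raw counts of reads per gene for 12 libraries. Per the labels' protocols, RNA kept in RNAlater was extracted with a column kit and sequenced as 100 bp single-end, strand-specific reads. The submitters' processing notes name TopHat2 2.1.0, Bowtie2 2.2.5, featureCounts and GRCm38.p4, with no settings for the counting step. The lowest third-highest CPM of any gene was 2.01, so the deposited counts had been filtered on low values. Symbols came from RefSeq (GRCm38.p6) for 13074 of 13124 genes, and the other 50, with 0.0811% of counts, stayed in the fit. CPM values were computed here from the deposited counts with TMM factors.

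Differences were tested with edgeR 4.0.16 (R 4.3.3, robust quasi-likelihood) in 1 fit of all 12 libraries with 8 residual degrees of freedom, adjusted by Benjamini-Hochberg over all genes and called below 0.05. The default expression filter removed 0 genes, and the common biological coefficient of variation was 16.42%. Intervals are 95% and unadjusted. Catalytic ratios were tested by an exact permutation test of F, whose smallest possible p is 6.49e-05. Its p is the share of assignments with an F at least as large as the observed one. Alternatives covered scaling, filters, DESeq2 1.42.0, limma 3.58.1 (voom), a test against 1.5-fold, the libraries fitted, and leaving out libraries. The fit was also run on simulated data in which far fewer genes changed than were called here. The simulation therefore does not test the scaling under changes as wide as these. Kidney values are given for the catalytic subunits and their counterparts, for the smallest and largest p of each other class, and for genes called against the trend; genes called in no comparison are all named, as are the 2 genes of smallest p in each pathway list (1 of them is not reported here), and any other gene was named after its values were seen. The genes, lists and tests were chosen with earlier results of these data known.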

Additional observations from a re-analysis of the deposited data

How the results depend on the processing

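In the 3 comparisons with isotype kidneys there were 81 calls of single genes. Of these, 61 held under every alternative that tested the gene, except the test against a 1.5-fold change. The other 20 were lost under at least 1 other alternative. A filter of at least 5 CPM in 3 libraries removed Psmb9 and Psmc3ip, so their calls were not tested under it. None of the called changes reversed. Against 1.5-fold, 2 of the 48 genes were called with anti-G-CSFR (Psmd11 and Psmd2), 2 with anti-C5 (Psmd11 and Psmb9) and 2 in isotype against sham (Psma5 and Psmd11), which follows from the higher bar. Leaving out 1 kidney at a time gave 21 to 29, 16 to 24 and 27 to 34 calls in these comparisons and 21 to 31 among the 4 groups. Without kidneys 9 and 11 together there were 21, 23 and 33. Fitting only the 6 compared libraries gave 24, 15 and 33. In the 3 comparisons without isotype kidneys, every alternative called 0 of the 48. The adjusted p of the Psmb9 to Psmb6 ratio ran from 0.00234 to 0.0138 by exact permutation tests over its alternatives, and that of the other 2 ratios from 0.215 to 0.870. The cause of the lost calls was not tested. Psmb9 and Psmc3ip, under 10 CPM, rest on few counts, which limits their precision. No paired analysis was possible because the kidneys are numbered 1 to 12 and no number is shared by 2 groups.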
